A study of Mus musculus with 2 samples.

Results

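The TRIM family groups proteins that carry a RING finger, B-box zinc fingers and a coiled coil in that order, and most act as ubiquitin ligases. Its members were taken here as all genes whose symbol begins with Trim followed by a digit and that had a probe set annotated to that gene alone. This gave 56 of 17874 measured genes, each measured by 1 probe set. Of the 69 TRIM genes in the RefSeq table, 13 were not analysed here, among them the erythroid gene Trim58.

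Expression was measured on 2 Affymetrix mouse arrays, 1 of cells kept for 3 h in Panserin medium and 1 of cells lysed at once (0 h). All cells had first been deprived of growth factors for 1 h. The cells were erythroid colony-forming units (CFU-E), red cell progenitors that depend on erythropoietin, taken at gestational day 13.5 from fetal livers of EpoR-/- BALB/c embryos. They were enriched from pools of 40 to 50 livers by lysing red cells and removing cells with lymphoid, myeloid, megakaryocytic or late erythroid surface markers. Both samples therefore lack the receptor per the protocol, while their genotype label reads Epo KO. Supplemental growth factors appear in the 3 h sample's treatment label, whereas the protocol states that none were added, so the samples are named by time. A strain label is given for the 0 h sample alone. With 1 array per time, no difference has a replicate error, and nothing was tested. Values are log2 expression, and differences are 3 h minus 0 h. A gene is described as measured above the floor where the higher of its values reached 5.70, the median of all gene values. The robust SD of the differences of all 9284 such genes was 0.31, which describes the scatter between these arrays and is not an error.

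TRIM proteins are sorted by what follows the coiled coil. The largest class carries a SPRY domain, which recognises substrates or viral proteins, and several of its genes are switched on by interferon through response elements in their promoters. Others end in a PHD finger and bromodomain and act on chromatin, or in NHL repeats, which bind RNA or protein. In red cell precursors, Trim10 is needed for terminal differentiation of mouse erythroleukaemia cells, and Trim58 marks the motor protein dynein for degradation in erythroblasts.

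Promoter sequences of the interferon-induced TRIM genes are shown because Trim30a, Trim12c and Trim21, which differed most between the arrays of all TRIM members, are among them. The core of the interferon-stimulated response element was searched on both strands as GAAA, any 2 bases and GAAA again, in RefSeq windows of 300 bases (GRCm38.p6) that run from 250 bases before each gene's start to 50 bases after it. Capitals mark the match, which reads as its reverse complement in most of these genes. Overlapping matches are joined. Each line gives 30 bases around the match, 5′ to 3′ on the gene's strand.
Trim30a (chr7:104465210-104465239, minus strand): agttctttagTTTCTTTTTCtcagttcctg
Trim30a, other start (chr7:104446104-104446133, minus strand): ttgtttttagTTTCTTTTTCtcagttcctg
Trim30d (chr7:104507871-104507900, minus strand): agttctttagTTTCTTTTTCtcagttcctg
Trim12c (chr7:104353359-104353388, minus strand): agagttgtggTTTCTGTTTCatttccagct
Trim12a (chr7:104315466-104315495, minus strand): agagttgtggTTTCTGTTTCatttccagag
Trim5 (chr7:104288136-104288165, minus strand): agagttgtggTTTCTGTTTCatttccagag
Trim34a (chr7:104244457-104244486, plus strand): tggtttggagTTTCAGTTTCttttctctgc
Trim21 (chr7:102565447-102565476, minus strand): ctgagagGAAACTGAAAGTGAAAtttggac
Trim26 (chr17:36836979-36837008, plus strand): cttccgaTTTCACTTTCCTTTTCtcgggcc

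The match lay close to the start in most of them, from base -36 to -27 in Trim30a, from -29 to -20 in Trim12c and from 14 to 29 after the start in Trim21. It was farther upstream in Trim26, from -160 to -145. The windows of Trim30a and Trim30d were identical over 30 of 30 bases, as were those of Trim5 and Trim12a, and Trim12c matched Trim12a at 28 of 30. Of the 11 measured genes of the interferon list 10 had a window, and 8 of these held the motif. The exceptions were Trim6 and Trim25, and Trim14 had no window. With the unmeasured genes Trim30b, Trim30c, Trim34b, Trim38 and Trim56, none of which held it, the count was 8 of 15. Outside the list, 1 of 35 TRIM members with a window held it, namely Trim2, and over all 27025 genes the share was 3.99%. These motifs were chosen after the values were seen, and a match describes the letters only.

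The context of the match before the start of Trim30a and of Trim12c is given in full, since these genes differed most. Both are 250 bases ending at the last base before the start.
Trim30a (chr7:104465194-104465443, minus strand): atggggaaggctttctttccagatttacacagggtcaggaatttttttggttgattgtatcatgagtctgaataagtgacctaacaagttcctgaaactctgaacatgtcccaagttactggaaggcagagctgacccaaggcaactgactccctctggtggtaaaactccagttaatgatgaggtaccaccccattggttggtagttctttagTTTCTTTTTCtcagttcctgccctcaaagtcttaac
Trim12c (chr7:104353350-104353599, minus strand): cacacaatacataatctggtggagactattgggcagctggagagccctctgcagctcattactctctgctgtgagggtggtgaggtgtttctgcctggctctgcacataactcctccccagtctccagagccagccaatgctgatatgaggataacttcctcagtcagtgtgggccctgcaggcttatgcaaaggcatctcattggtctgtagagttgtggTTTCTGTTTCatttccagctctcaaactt

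The interferon-induced TRIM genes Trim30a, Trim12c and Trim21 were higher at 3 h, and they were the only TRIM members above the floor that differed by at least 2-fold. Trim30a, a mouse gene that restrains NF-kB signalling, had a log2 value of 6.60 at 3 h, against 3.83 at 0 h, a difference of 2.77 or 6.81-fold. It was below the floor at 0 h, so this fold rests on a signal near background. Its difference ranked 13 from the top among the 9284 genes above the floor.

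Trim12c, a rodent relative of the primate restriction factor TRIM5, had 8.56 at 3 h and 7.21 at 0 h, a difference of 1.35 or 2.55-fold. It was above the floor on both arrays and ranked 107. Trim21, which encodes a cytosolic receptor for antibodies, had 7.72 at 3 h and 6.43 at 0 h, a difference of 1.29 or 2.45-fold, and ranked 114. Higher by 2-fold or more were 3 of 26 TRIM members, where 2.00% of all genes above the floor were, and 0 of 26 were lower by that much, where 0.872% of all genes were. With the floor on the mean of both arrays, which Trim30a does not reach, the count was 2 of 24, where 1.46% of all genes were higher by 2-fold.

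Smaller differences were seen for the other listed genes above the floor. Trim25, which ubiquitinates the viral RNA sensor RIG-I, had 7.42 at 3 h and 6.95 at 0 h (0.47). Trim26, a gene of the MHC region, had 6.75 at 3 h and 6.33 at 0 h (0.42). Trim14, which lacks a RING finger and is an adaptor of antiviral signalling at mitochondria, had 6.70 at 3 h and 6.88 at 0 h (-0.18). The remaining measured genes of the list were below the floor on both arrays. Trim34a had 3.85 at 3 h and 3.48 at 0 h, and Trim30d had 3.08 at 3 h and 2.79 at 0 h. Trim6 had 3.00 at 3 h and 3.08 at 0 h, Trim12a 2.76 at 3 h and 2.85 at 0 h, and Trim5 2.41 at 3 h and 2.66 at 0 h. Of these, Trim30d, Trim12a and Trim5 share the motif, and at least 28 of the 30 bases around it, with Trim30a or Trim12c. With 1 probe set each, any relation of the motif to these values was not tested.

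The list was made of 16 genes, of which Trim30b, Trim30c, Trim34b, Trim38 and Trim56 were not analysed here. Over its 6 members above the floor the median difference was 0.88, with 5 higher and 1 lower. Trim30a passed the floor only at 3 h. With the floor set on the mean of both arrays, which leaves Trim30a out, the median of the 5 others was 0.47, and over all 11 measured genes it was 0.37. The median over all genes above the floor was 0.01.

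**Figure D1:**
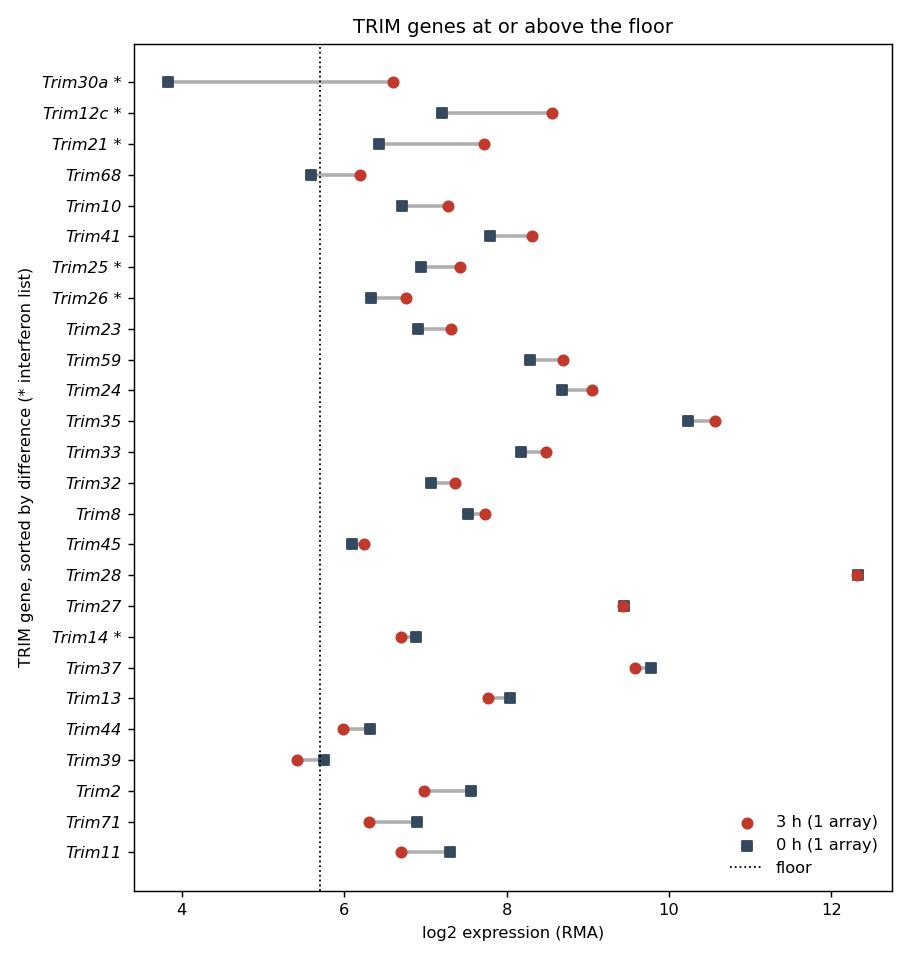
Log2 expression of the 26 TRIM genes above the floor at 3 h (red circles) and 0 h (dark squares), 1 array each, sorted by the difference, with the floor of 5.70 as a dotted line and the interferon list marked by stars. Trim30a, Trim12c and Trim21 show the longest lines, with differences of 2.77, 1.35 and 1.29, and Trim11, Trim71 and Trim2 lie at the bottom.

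Most genes of the interferon list lie next to each other. In the RefSeq gene order of chromosome 7, Trim6, Trim34a, Trim5, Trim12a, Trim34b, Trim12c, Trim30b, Trim30c, Trim30a, Trim30d and a Trim30 pseudogene form a run of 11. Of these, 7 were measured, and Trim12c and Trim30a alone reached the floor. Genes of the run that did not reach it differed by -0.26 to 0.37. Close paralogs can share signal, and this was not tested. Trim21 and Trim68, elsewhere on the same chromosome, also neighbour each other. Trim68, a SPRY member that binds the androgen receptor, had 6.19 at 3 h and 5.59 at 0 h, a difference of 0.61 or 1.52-fold. It was just below the floor at 0 h.

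**Figure D2:**
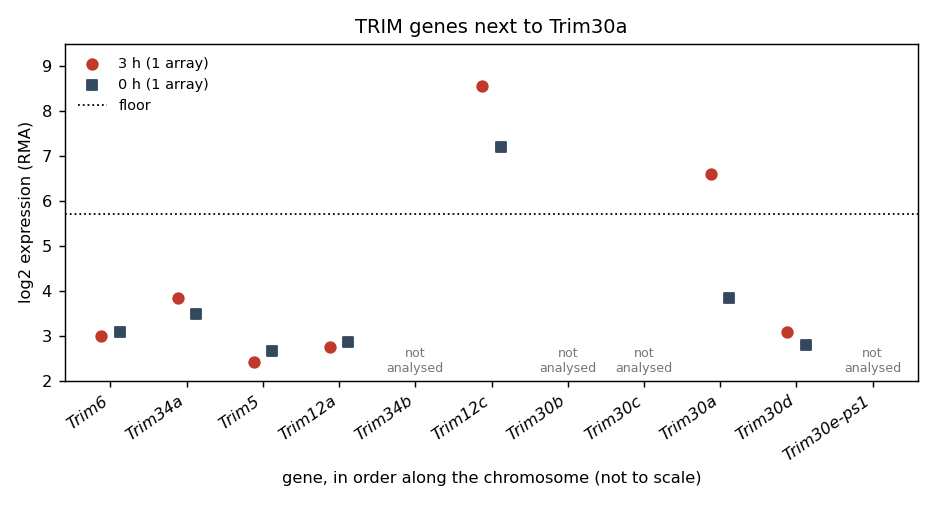
Log2 expression at 3 h (red circles, left) and 0 h (dark squares, right) of the run of 11 neighbouring TRIM genes on chromosome 7, in gene order and not to distance, with the floor of 5.70 dotted. Trim12c (8.56 at 3 h, 7.21 at 0 h) and Trim30a (6.60 at 3 h, 3.83 at 0 h) reached the floor on at least 1 array, and the other 5 measured genes did not reach it on either.

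Genes outside the TRIM family that interferon induces were higher on the same array. In a reference list chosen for this comparison, 11 of 15 measured genes were above the floor, with a median difference of 1.80, but 6 of them reached it at 3 h alone. All 11 were higher by 1.5-fold or more, where 6.94% of all genes above the floor were. With the floor on the mean of both arrays the median was 1.51 over 7 genes, and over all 15 measured genes it was 1.48, with Dhx58, a gene of the RIG-I family, at 0.01. The antiviral gene Rsad2 had 6.77 at 3 h and 3.39 at 0 h, Usp18, which trims the ubiquitin-like ISG15, had 9.94 at 3 h and 7.13 at 0 h, and the transcription factor gene Irf7 had 6.64 at 3 h and 4.79 at 0 h. Over the 15 genes the differences ran from 0.01 (Dhx58) to 4.38 (Rtp4), and the next genes were picked for their close values. Trim30a (2.77) was close to Ifit1 (2.79), an RNA-binding antiviral gene that was also below the floor at 0 h. Trim12c and Trim21 lay near Ifit2 (1.39) and Oasl1 (1.22). Of 9 reference genes above the floor with a promoter window, 5 held the same motif, where 3.52% of all genes above the floor did. Among all genes at least 2-fold higher it was 18 of 147.

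Markers of myeloid cells were higher on this array as well. All 11 measured granulocyte markers were higher, where 50.2% of all measured genes were. Their mean log2 value was 8.28 at 3 h and 7.22 at 0 h, and S100a9 had 11.67 at 3 h and 9.72 at 0 h. Above the floor were 9 of the 11 markers, 3 of these at 3 h alone. Of 11 macrophage markers 8 were higher, with means over all 11 of 6.31 at 3 h and 5.97 at 0 h. Above the floor were 5 macrophage markers, 4 of them higher and 1 lower. Among them Csf1r had 9.32 at 3 h and 8.32 at 0 h, and Lyz2 had 9.80 at 3 h and 7.98 at 0 h, whereas Vcam1 was lower, with 8.25 at 3 h and 9.22 at 0 h. The complement genes C1qa, C1qb and C1qc were below the floor on both arrays. The part of these myeloid markers in the TRIM values was not tested, and in such samples a different share of cells and a different RNA content per cell cannot be told apart. Hepatocyte markers were all above the floor on both arrays, with means of 11.42 at 3 h and 11.61 at 0 h. Of 13 measured, 11 were lower and 2, Krt8 (0.95) and Krt18 (0.88), were higher. By 1.5-fold or more 3 were lower and these 2 higher, where 4.80% and 6.94% of all genes above the floor were. Of 6 megakaryocyte markers 3 were higher and 3 lower. Gp1bb differed most of these, with 6.68 at 3 h and 4.49 at 0 h, where it was below the floor. Of 9 lymphoid markers 7 were higher, and 1, Ighm, reached the floor, at 3 h alone. RMA values have no 0, so no marker can be called absent.

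**Figure D3:**
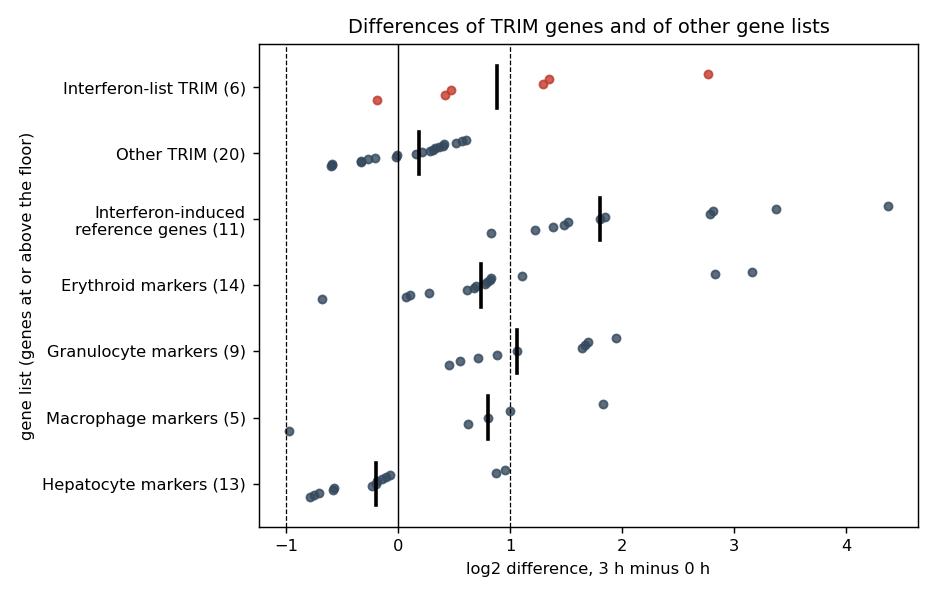
Log2 differences, 3 h minus 0 h, of genes above the floor in 7 lists, 1 point per gene, with the list's median as a black bar and 2-fold as dashed lines. Interferon-list TRIM genes (median 0.88) spread from -0.18 to 2.77, the other 20 TRIM genes (median 0.18) stay between -0.60 and 0.61, and the 11 interferon-induced reference genes shown (median 1.80), 6 of which reached the floor at 3 h alone, lie right of 0.

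Trim10, the erythroid member that was measured, was higher at 3 h. It had a log2 value of 7.28 at 3 h and 6.72 at 0 h, a difference of 0.57 or 1.48-fold, just short of 1.5-fold, and was above the floor on both arrays. Its rank was 677 of 9284. Most erythroid markers were higher as well: of 14 measured, all above the floor, 13 were higher and 10 of them by at least 1.5-fold, with a median of 0.74. Of all genes above the floor, 51.5% were higher and 6.94% were by at least 1.5-fold. Gata1, the master erythroid transcription factor, had 10.15 at 3 h and 9.32 at 0 h. Slc4a1, the band 3 anion exchanger, had 8.30 at 3 h and 5.47 at 0 h, where it was below the floor. Epb42 (5.23 at 3 h and 5.91 at 0 h), which encodes the membrane protein 4.2, was lower and was below the floor at 3 h. Trim10 lies in the MHC region on chromosome 17 in a run with Trim26, Trim15, Trim40 and Trim31, all measured. Of these neighbours Trim26 reached the floor, and Trim15 (3.64 at 3 h and 4.00 at 0 h), Trim40 (4.17 at 3 h and 4.15 at 0 h) and Trim31 (3.24 at 3 h and 3.06 at 0 h) did not.

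The promoter of Trim10 is shown because it holds a GATA factor site, searched as GATAAG on both strands and in capitals below as its reverse complement, from base -164 to -159.
Trim10 (chr17:36869324-36869573, plus strand): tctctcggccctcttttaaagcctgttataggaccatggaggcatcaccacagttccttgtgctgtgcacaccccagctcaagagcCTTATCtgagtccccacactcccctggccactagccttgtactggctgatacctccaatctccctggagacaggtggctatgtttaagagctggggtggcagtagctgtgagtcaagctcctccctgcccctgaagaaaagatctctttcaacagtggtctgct
Among the 45 TRIM members with a window, 3 held this motif, the others being Trim13 and Trim80. The share over all genes was 8.58%, and among erythroid markers above the floor it was 4 of 11.

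The TIF1 genes encode chromatin regulators with a PHD finger and a bromodomain. Trim28, the corepressor of KRAB zinc finger proteins, had 12.32 at 3 h and 12.33 at 0 h, and the sign of this difference of -0.01 turned under 2 alternatives, with a highest value of 0.04. Trim24, a nuclear receptor coregulator and ligase of p53, had 9.05 at 3 h and 8.68 at 0 h (0.37). Trim33, whose zebrafish homologue is needed for blood formation, had 8.49 at 3 h and 8.17 at 0 h (0.31). The testis gene Trim66 was below the floor, with 2.88 at 3 h and 3.10 at 0 h.

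The NHL genes held some of the lowest differences of the family. Trim71, an RNA-binding regulator of stem and early progenitor cells, had 6.30 at 3 h and 6.89 at 0 h, a difference of -0.59 or 1.50-fold. Trim2, which in neurons acts on neurofilament light chain, had 6.98 at 3 h and 7.56 at 0 h, a difference of -0.58, and lay just short of 1.5-fold, where Trim71 lay just past it. Trim32, a gene of muscle maintenance, was higher, with 7.36 at 3 h and 7.07 at 0 h (0.29). Trim3, mainly a brain gene, was below the floor, with 5.61 at 3 h and 5.29 at 0 h.

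In the SPRY class, 12 of 27 measured members were above the floor, 9 of them higher and 3 lower, where 51.5% of all genes above the floor were higher. The higher ones include Trim30a, Trim12c, Trim21, Trim25 and Trim26 of the interferon list. Of the 12, 2 reached the floor at 3 h alone. Trim11, known from neural tissue, was lowest of all TRIM members in its difference, with 6.70 at 3 h and 7.30 at 0 h (-0.60, 1.51-fold). Trim39, which has a role in cell cycle and apoptosis control, had 5.42 at 3 h and 5.75 at 0 h (-0.33) and passed the floor at 0 h alone. Trim41 had 8.31 at 3 h and 7.79 at 0 h (0.52). Trim35, found in a lineage switch of erythroid cells and linked to apoptosis, had 10.56 at 3 h and 10.24 at 0 h (0.33). Trim27, also known as Rfp, had 9.43 at 3 h and 9.45 at 0 h (-0.02).

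The 4 Trim-named genes listed as lacking a RING finger were all lower, though by little, where 50.2% of all 17874 genes were higher. Besides Trim14, Trim44 had 5.99 at 3 h and 6.32 at 0 h (-0.33), and Trim16 (-0.06) and Trim29 (-0.11) were below the floor. The membrane-anchored members went both ways. Trim59 had 8.69 at 3 h and 8.29 at 0 h (0.40), and Trim13, a ligase of the endoplasmic reticulum, had 7.77 at 3 h and 8.04 at 0 h (-0.27).

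Among members with other C-termini, Trim23, which carries a GTPase domain of the ARF kind, had 7.31 at 3 h and 6.90 at 0 h (0.41). Trim8, a regulator of cytokine signalling, had 7.74 at 3 h and 7.53 at 0 h (0.21), and Trim45 had 6.25 at 3 h and 6.09 at 0 h (0.16). Trim37, a centrosome and peroxisome gene, had 9.58 at 3 h and 9.78 at 0 h (-0.20). None of these 4 differed by 1.5-fold.

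Below the floor on both arrays were 30 of 56 members, 19 of them higher and 11 lower, with a median difference of 0.03. They included all 4 measured genes of the neuronal and germ cell class with a COS box and FN3 domain (Trim9, Trim36, Trim46 and Trim67) and both measured muscle genes of the MURF class. Of these Trim54, which binds microtubules in muscle, had 5.38 at 3 h and 4.43 at 0 h, a difference of 0.95 that lies near background. Trim63, a driver of muscle atrophy, had 3.29 at 3 h and 3.42 at 0 h. With 1 probe set each, such values do not show a gene to be silent.

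**Figure D4:**
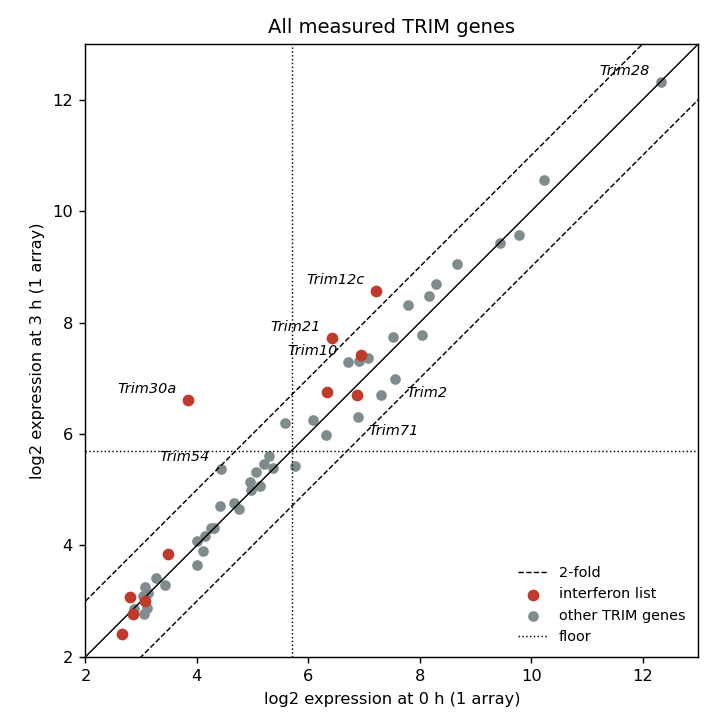
Log2 expression of all 56 measured TRIM genes at 3 h (vertical axis) against 0 h (horizontal axis), 1 array each, with equality as a solid line, 2-fold as dashed lines and the floor of 5.70 dotted. Trim30a, Trim12c and Trim21 lie above the upper 2-fold line, and none of the 56 lies below the lower one.

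Across the family, 16 of 26 members above the floor were higher and 10 lower (61.5% higher, against 51.5% of all genes above the floor), and the median difference was 0.30. At least 1.5-fold, 4 were higher, where 6.94% of all genes were, and 2 were lower, where 4.80% were. Among the 4, Trim30a and Trim68 reached the floor at 3 h alone. With the floor on the mean of both arrays, 3 of 24 were higher and 2 lower, where 6.04% and 4.40% of all genes were. After quantile normalization of the 2 columns, 3 of 26 were higher and 3 lower by 1.5-fold, where 6.33% and 5.39% of all genes were. Trim68 (0.55) then missed the threshold and Trim2 (-0.62) passed it. Outside the interferon list, 1 of 20 was at least 1.5-fold higher and 2 were lower, with a median of 0.18, and 0 of 20 differed by 2-fold. Of all 56 members 35 were higher and 21 lower, where 50.2% of all 17874 genes were higher, and their median was 0.06. Within 1.5-fold lay 20 of 26 members (76.9%), where 88.3% of all genes above the floor did.

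TRIM proteins that bear other symbols were described alongside. Pml, the organiser of nuclear bodies and itself induced by interferon, had 6.75 at 3 h and 5.80 at 0 h, a difference of 0.95 or 1.93-fold. Mid1 (3.99 at 3 h and 4.16 at 0 h), Mid2 (3.16 at 3 h and 2.83 at 0 h) and Mefv (4.41 at 3 h and 4.23 at 0 h) were below the floor.

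Genes of ubiquitin-conjugating enzymes and their variants that work with TRIM ligases were described as well. Of 9 measured genes, all above the floor, 1 was at least 1.5-fold higher, namely Ube2e2 with 7.11 at 3 h and 6.41 at 0 h (0.70), and 0 were lower by that much, where 6.94% of all genes above the floor were higher and 4.80% lower. Their median was 0.03. Among partners and substrates of TRIM proteins, 15 of 16 measured genes were above the floor, 2 of them higher and 1 lower by 1.5-fold or more, beside the same shares of all genes. The viral RNA sensor genes were the higher ones. Ddx58, which encodes the Trim25 substrate RIG-I, had 6.97 at 3 h and 4.95 at 0 h (2.02), below the floor at 0 h, and Ifih1 had 8.22 at 3 h and 6.70 at 0 h (1.51). Rara, the retinoic acid receptor gene, had 5.41 at 3 h, below the floor, and 6.06 at 0 h (-0.65). Tab2 (0.11) and Tab3 (0.36), targets of the Trim30a protein, the Trim28 partner gene Setdb1 (0.25) and Smad4 (0.32), bound by the Trim33 protein, differed by less than 1.5-fold.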

How the data were processed

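Labelled cRNA was prepared from 1.5 µg of RNA, per the labels' protocols. The authors deposited log2 values per probe set, computed with RMA in the affy package per the submitters' processing notes (versions: not given in the sources used here). The RMA step equalises arrays at the level of probes, which can hide a global shift of transcripts, and it shrinks differences of dim signals. The deposited columns still differed slightly, with medians of 5.32 at 3 h and 5.29 at 0 h. Precision is limited by having 1 array per time.

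The table holds 20666 probe sets, of which 17918 were named with 1 gene by the platform annotation, 79 with several and 2669 with none. A probe set that names a TRIM gene together with another gene was left out, and this applied to 1. Entrez IDs matched to RefSeq changed 0 symbols. Probe sets of a gene were averaged, which affected 43 of 17874 genes and 0 TRIM members. Titles gave each sample's time, which defined the groups.

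Members named were those above the floor at 1.5-fold or more, the interferon and erythroid members, the 5 of highest mean signal and up to 3 per structural class by absolute difference. Trim41, Trim39, Trim45, Trim54 and other members outside this rule were chosen after their values were seen, as were the motifs, the neighbour runs (at most 500 kb between starts) and examples from other lists. The members and lists were chosen with earlier results of these data known. Promoter windows were found for 45 of 56 members.

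Alternatives were quantile normalization, removal of a loess trend (span 0.3), the probe set of highest mean, probe sets without a letter suffix, dropping the floor, or raising it to the 75th percentile (7.96). The gene averaging, quantile and loess steps were tried on simulated data, with planted differences past 2-fold in genes well above the floor. The simulated noise was smaller than the scatter between these arrays. Genes near the floor, the 1.5-fold threshold, the list medians and the motif search were not tried there. Python 3.11.15, numpy 2.4.6, pandas 2.3.3, statsmodels 0.14.6 and matplotlib 3.10.9 were used.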

Additional observations from a re-analysis of the deposited data

How the results depend on the processing

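With 1 probe set per member, only quantile normalization and removal of the loess trend could change a member's own value. The other alternatives repeat the main value or give none. Under those 2 alternatives, no named member above the floor moved by as much as the robust SD of 0.31. Of the 28 named members 1, Trim28, changed sign. Named members below the floor had a value with no floor alone, so their stability was not tested. The median of the interferon list depended on which members reached the floor. It was 1.29 over 3 members with probe sets that carry no letter suffix (which leaves out Trim30a, Trim25 and Trim26), 0.37 over 11 with no floor, and 0.47 over 5 with the floor on the mean of both arrays, an alternative chosen after seeing the data. At the floor of the 75th percentile it was 1.35 and rested on Trim12c alone. That floor left 10 members and gave Trim10 no value. Of the 10, 1 was higher by 1.5-fold and also by 2-fold, where 5.21% and 1.32% of all genes at that floor were. By 1.5-fold 0 of the 10 were lower, where 4.46% of all genes were. Without letter suffixes 1 of 17 members was at least 1.5-fold lower, where 5.03% of all genes were. After quantile normalization 3 members were higher and 3 lower by 1.5-fold, so these counts had no direction there. Of all genes, 6.33% were then higher and 5.39% lower by that much. The family's median stayed positive, ranging from 0.06 with no floor to 0.32 at the higher floor. No paired analysis was possible because each time has 1 array, and no replicate could be left out. Signals near background limit what can be said of the 30 members below the floor.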
